A study of Mus musculus with 12 samples.

Results

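The time course of substance P in the mouse urinary bladder was read from 6 of the 12 arrays of the series, chosen by sample title: 3 from mice given substance P and 3 from mice given saline, each set with 1 array at 1, 4 and 24 h. All 6 arrays carry total RNA of whole bladder from c57bl6 female mice. The challenge was labelled as Substance P at 1 micromolar or as saline, with no sensitization named for either group. The labels give no age for the mice, no number of animals per array and no route for these challenges. The other 6 arrays are from mice given LPS and from mice sensitized with DNP-HSA and challenged with DNP-OVA, and they enter only through the common scaling, the estimate of spread and a few values set side by side.

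Substance P is a neuropeptide of the tachykinin family that is stored in the endings of sensory nerves. It is released when those nerves are excited and acts through neurokinin receptors on blood vessels, epithelium, smooth muscle and immune cells. In the bladder it is known as a mediator of neurogenic inflammation, the swelling and leukocyte recruitment that nerve activity itself can set off. The time course asks how bladder RNA differs from saline soon after the peptide and whether the difference is still there a day later.

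The deposited table identifies its 1185 probes by codes alone (597 M codes, 351 V codes and 237 MA codes), so probes are given by code, no gene is named and no cell type marker could be read. No code equals a symbol or gene ID in the mouse gene table used here (GRCm38.p6). Levels are log2 intensities after quantile normalization of all 12 arrays, which gives every array the same distribution. Values under the 10th percentile were raised to it, which sets a floor at 15.54. In a whole bladder, fewer cells of a type and less RNA per cell cannot be told apart. Each treatment and time has 1 array, so a ratio at 1 time has no replicate check. Every ratio was therefore set against all 3 saline arrays.

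Before scaling, the substance P arrays were brighter and wider in range than the saline arrays. Their medians ran from 80065 to 94600 intensity units against 53297 to 78536, and their 90th percentile was 2.64 to 3.52 times the 10th against 1.43 to 2.51 times. The part of this difference in the results was not tested apart from the change of scaling. The saline 24 h array stood apart from its own group: 34 probes were at least 2-fold apart between it and saline 1 h and 33 between it and saline 4 h, while those earlier arrays were 2-fold apart in 8. The 2-fold counts against all 3 saline arrays and some fitted differences are given without it as well. Results on the mean of the saline arrays and on groups that do not overlap include it, though some are repeated against single saline arrays.

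By the spread of log2 ratios across all probes, the substance P 1 h array lay farthest from the saline mean and the 24 h array nearest. The standard deviation (SD) of the log2 ratios to the mean of the saline arrays was 0.271 at 1 h, 0.231 at 4 h and 0.205 at 24 h. Of these arrays only substance P 24 h carries the lot number of saline 1 h and 4 h, and lot and time cannot be told apart in this order. The share of probes within 1.5-fold of that mean was 96.9%, 98.0% and 98.6%. At 1 h, 10 probes were over 2-fold above the saline mean and 0 as far below it. The 4 h array had 9 above and 1 below, and the 24 h array 4 above and 0 below. Most saline means lay within 2-fold of the floor, where a probe cannot be counted 2-fold lower. The order of the SDs was the same after cyclic loess (0.308, 0.261 and 0.210), median scaling (0.442, 0.375 and 0.277) and a normexp background correction (0.723, 0.684 and 0.661), and for the unscaled values about their median (0.477, 0.417 and 0.291).

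By the SD, the 24 h array was nearer than the 1 h array to each single saline array, but 4 h and 24 h were not always in that order. With saline 1 h as the reference the SD was 0.338 at 1 h, 0.320 at 4 h and 0.265 at 24 h. With saline 4 h it was 0.233, 0.200 and 0.209, and with saline 24 h it was 0.425, 0.382 and 0.375. Pairs of saline arrays gave 0.295 to 0.394. The choice of saline array thus moved the SD by more than the time after substance P did, and the only SD above all saline pairs was that of substance P 1 h against saline 24 h. Other measures were mixed. The median absolute log2 ratio at 1 h and 24 h was 0.162 and 0.148 to saline 1 h, 0.102 and 0.106 to saline 4 h, and 0.174 and 0.169 to saline 24 h. Spearman's rho of the deposited values was 0.701 and 0.750, 0.856 and 0.842, and 0.697 and 0.683 in the same order.

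**Figure D1:**
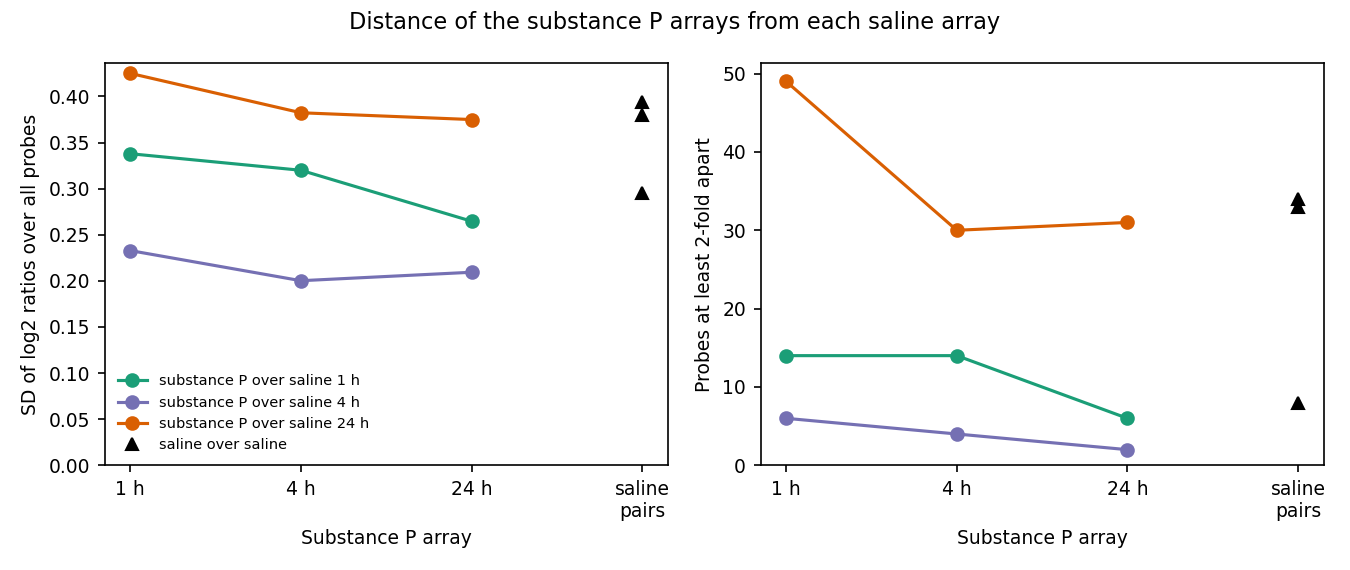
Distance of each substance P array (x axis) from each of the 3 saline arrays, as the SD of log2 ratios over all 1185 probes (left) and as the number of probes at least 2-fold apart (right); triangles are the 3 pairs of saline arrays. The line for saline 24 h lies highest, from 0.425 to 0.375 and from 49 to 31 probes, and the line for saline 4 h lowest.

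Counted against the saline array of its own time, substance P gave 14 probes at least 2-fold apart at 1 h (1.22% of the 1148 probes above the floor on either array), 4 at 4 h (0.358% of 1118) and 31 at 24 h (2.67% of 1160). The 1 h probes comprised 12 higher (1.05%) and 2 lower (0.174%). The 4 h probes comprised 3 higher (0.268%) and 1 lower (0.0894%), and the 24 h probes 18 higher (1.55%) and 13 lower (1.12%). The high count at 24 h goes with saline 24 h, since 6 probes separated the same substance P array from saline 1 h by 2-fold and 2 separated it from saline 4 h. The labels give lot number 2 to all 3 arrays behind these values, so both are within a lot. The batch in that lot differs, at 1 for saline 1 h, 2 for saline 4 h and 3 for substance P 24 h. No lot is given for substance P 1 h, substance P 4 h or saline 24 h. The split into higher and lower also went with the scaling. In order of time, cyclic loess gave 17 against 1, then 3 against 3, then 7 against 13. Median scaling gave 72 against 0, then 15 against 0, then 58 against 0. Normexp correction gave 172 against 183, then 71 against 52, then 204 against 204. Without scaling the median probe was higher with substance P by 0.26, 0.48 and 0.54 on the log2 scale. Relative to that shift, substance P 1 h had 64 probes 2-fold above and 2 below, the 4 h array 15 above and 0 below, and the 24 h array 61 above and 0 below.

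A stricter count keeps a probe only if it is at least 2-fold on the same side of each of the 3 saline arrays. This left 6 probes at 1 h, all higher (0.542% of 1108 tested), 1 at 4 h, also higher (0.091% of 1099), and 0 at 24 h (0% of 1112). No probe was 2-fold below all saline arrays at any of these times (0%). A probe within 2-fold of the floor (15.54) on any saline array could not be counted lower. M781, with a saline mean of 16.46, was at the 85.7th percentile of all probes by that mean. Most probes could therefore be counted only as higher, and the lack of lower probes says little about direction. At 1.5-fold the counts were 13, 11 and 2 probes higher and again 0 lower. Without saline 24 h the 2-fold counts stayed at 6, 1 and 0. The 6 probes of 1 h met the criterion under all 7 other settings of scaling, background and floor, where the counts at 1 h ran from 6 to 56. These settings are not 7 separate checks. Both other floors gave the same counts, and normexp correction widened the ratios (SD of 0.723 at 1 h). Median scaling and no scaling leave the wider range of the substance P arrays in place. The absence of lower probes did not hold under normexp correction, where 20 probes were higher and 14 lower at 1 h. There the 4 h array had 14 higher against 7 lower, and the 24 h array 8 higher against 14 lower. Cyclic loess put 1 probe lower at 4 h, beside 2 higher.

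The same count can be made for a saline array against the other saline arrays. Against saline 4 h and 24 h, substance P 1 h was 2-fold apart in 6 probes and saline 1 h in 1. Against saline 1 h and 24 h the counts were 11 for substance P 1 h and 5 for saline 4 h. Against saline 1 h and 4 h they were 6 for substance P 1 h and 13 for saline 24 h. So the 1 h array exceeded the left-out saline array when that was saline 1 h or 4 h, and not when it was saline 24 h. The substance P 4 h array gave 3, 9 and 1 probes in the same order, and the 24 h array 1, 2 and 0.

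**Figure D2:**
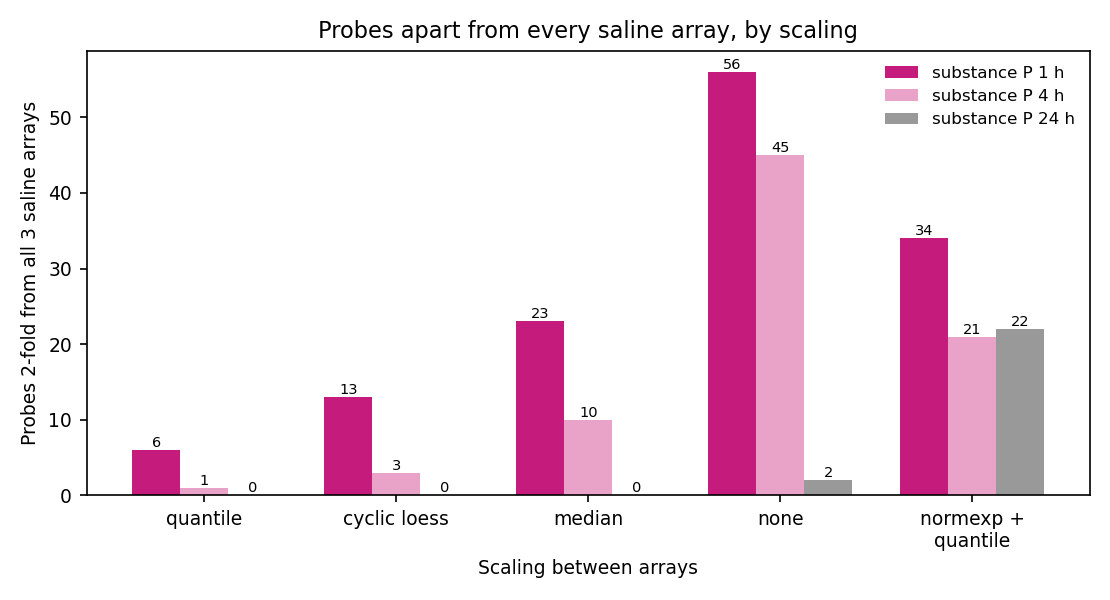
Number of probes at least 2-fold on the same side of all 3 saline arrays at each time (bars, 1 array each), for 5 ways of scaling the arrays. The bar of 1 h is the tallest of its group each time, from 6 to 56 probes, and the bar of 24 h is at 0 for 3 of the 5 scalings, at 2 without scaling and at 22 with normexp correction.

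Probe M781 was the highest at 1 h. Its deposited intensity was 2660630 on substance P 1 h, 502594 at 4 h and 95970 at 24 h, and 117312, 149227 and 53963 on the saline arrays of those times. The 1 h value stands far above all saline arrays, the 4 h value above them by less, and the 24 h value lies inside their range. On the normalized log2 scale the levels were 20.14, 17.81 and 16.05 with substance P and 16.57, 16.90 and 15.90 with saline. M781 was thus 11.9-fold, 9.47-fold and 18.9-fold above saline 1 h, 4 h and 24 h at the first time, and 2.35-fold, 1.87-fold and 3.74-fold above them at 4 h. At 24 h it was 1.43-fold and 1.80-fold below saline 1 h and 4 h and 1.11-fold above saline 24 h.

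Probe V164 had the next highest ratio at 1 h by the saline array nearest to it. Its intensity was 878010, 198816 and 135454 at 1, 4 and 24 h with substance P, and 130042, 116880 and 64746 with saline. The log2 levels were 18.33, 16.61 and 16.47 against 16.82, 16.54 and 16.45, so that only the 1 h value left the saline range. It was 2.83-fold, 3.45-fold and 3.66-fold above the saline arrays at 1 h, and its 4 h level was 1.00 times the saline mean. Probe M99, also among the 6, was slower to come down: its log2 levels were 18.43, 17.39 and 16.30 with substance P and 16.13, 17.02 and 15.94 with saline. M99 was 4.21-fold above the saline mean at 1 h and 2.04-fold above it at 4 h, and its 24 h level was 0.960 times that mean. The saline arrays themselves differ for this probe, with an SD of 0.58.

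The other 3 probes of this set were 2.39-fold, 2.51-fold and 3.00-fold above the saline mean at 1 h. Of these, 2 sat at the floor on saline 1 h, so their ratios to saline 1 h and to the saline mean are lower bounds. The floor was also the level of 1 of them on substance P 24 h. Of the 6, 4 have M codes and 2 have V codes. Their saline levels were neither the dimmest nor the brightest of the array, at the 24.5th to the 89.4th percentile of all probes.

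**Figure D3:**
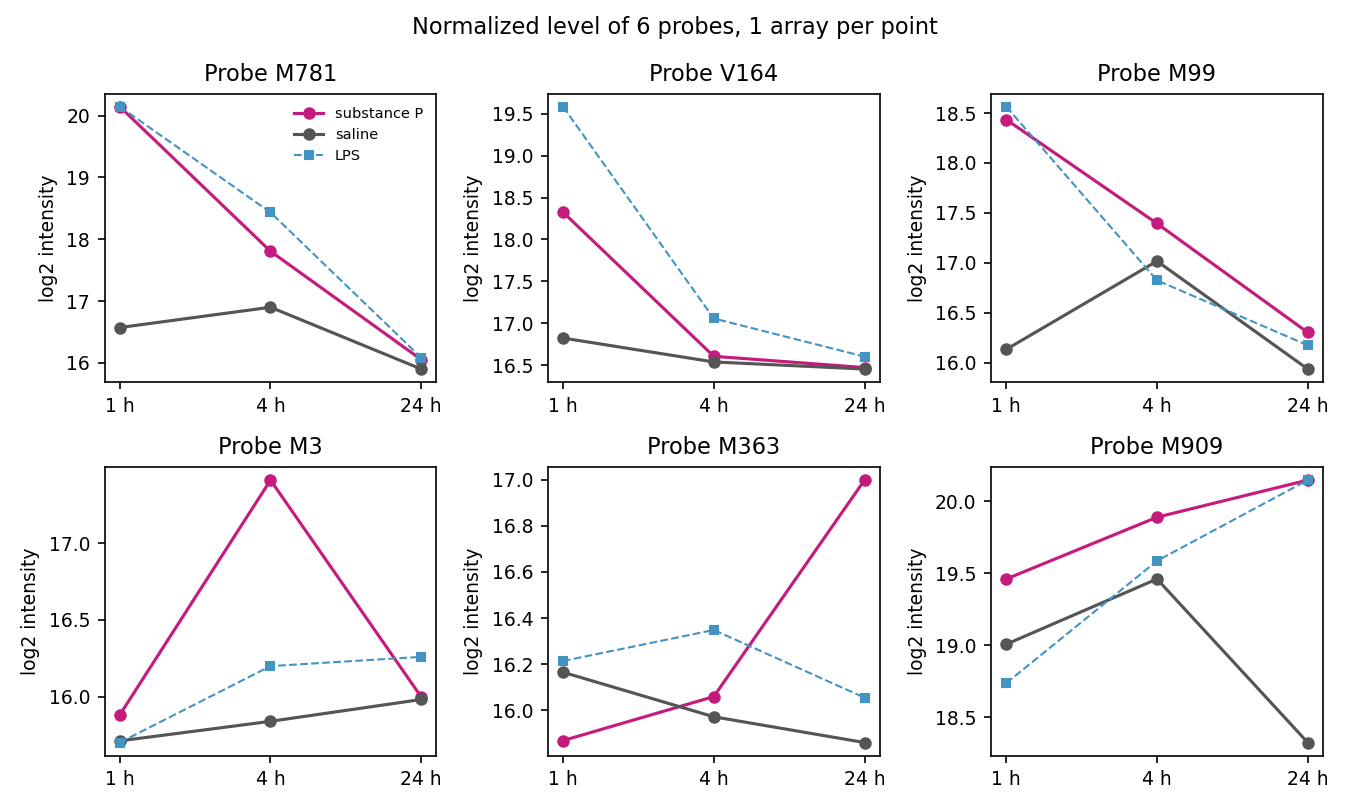
Normalized log2 level of 6 probes at 1, 4 and 24 h on the substance P (pink), saline (grey) and LPS (blue, dashed) arrays, 1 array per point, with a separate y axis for each probe. M781, V164 and M99 are highest at 1 h with substance P, M3 is high at 4 h alone (17.41), and M363 at 24 h alone (17.00).

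The 6 probes of 1 h were followed to the later arrays, which played no part in choosing them. The median log2 ratio to the saline mean was 1.65 at 1 h, where it is a description of the choice, 0.59 at 4 h and -0.13 at 24 h. Over all probes the median was -0.02 at each time. At 4 h, 3 of the 6 were within 1.5-fold of the saline mean, as were 98.0% of all probes, and the other 3 were 2.04-fold to 2.54-fold above it. At 24 h all 6 were within 1.5-fold, with log2 ratios from -0.40 to 0.00, and so were 98.6% of all probes. The share of the 1 h log2 ratio left at 4 h ran from 0.034% to 67.9%, and M781 kept 36.6%. A probe chosen for a high value on 1 array tends to be lower on the next by the choice alone, and with 1 array per time this cannot be told apart from a return. With single saline arrays as the reference the median was 0.84, 0.22 and 0.67 at 4 h and 0.08, -0.39 and -0.0032 at 24 h for saline 1 h, 4 h and 24 h. The wider set of 13 probes at 1.5-fold had a median of 1.25 at 1 h, 0.26 at 4 h and -0.06 at 24 h, and 10 of the 13 were within 1.5-fold of saline at 4 h.

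**Figure D4:**
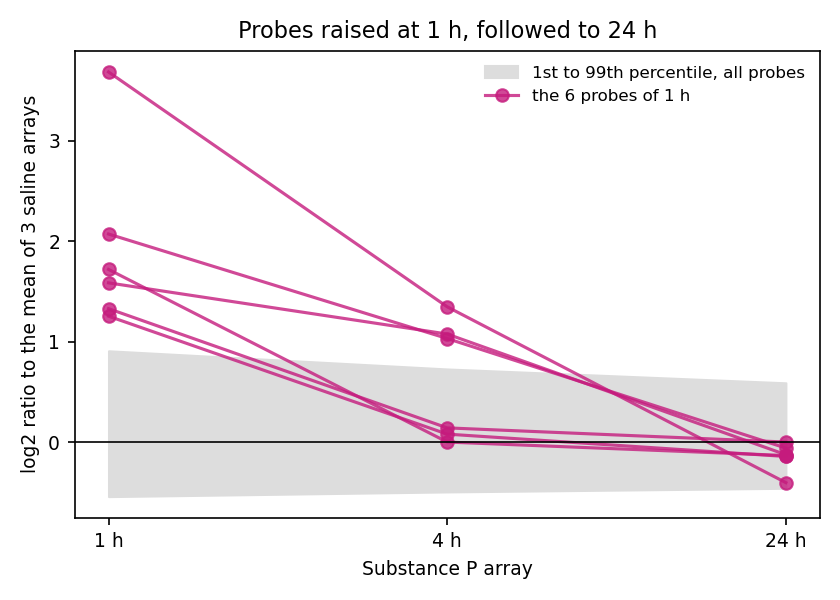
log2 ratio to the mean of the 3 saline arrays at 1, 4 and 24 h for the 6 probes at least 2-fold above every saline array at 1 h (lines), over the band from the 1st to the 99th percentile of all 1185 probes (grey). The lines part at 4 h, with 3 near 0 and 3 between 1.03 and 1.35, and all end between -0.40 and 0.00 at 24 h.

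At 4 h the one probe 2-fold above every saline array was M3. Its intensity was 371856 on substance P 4 h, beside 95429 at 1 h and 90929 at 24 h, and 71049, 66862 and 55316 on the saline arrays. The log2 levels were 15.88, 17.41 and 16.00 with substance P against 15.71, 15.84 and 15.98 with saline, so 1 array of the 12 stood out: LPS and ovalbumin arrays ran from 15.70 to 16.26. M3 was 3.25-fold, 2.97-fold and 2.70-fold above saline 1 h, 4 h and 24 h. M901 came next, with log2 levels of 18.78, 19.46 and 18.66 against 18.53, 18.29 and 18.11, above all saline arrays at every time and 2.22-fold above their mean at 4 h. Of the 11 probes at 1.5-fold at 4 h, 2 had met that criterion at 1 h, and 9 had not. Against the saline mean alone, 6 of the 11 were already at least 1.5-fold higher at 1 h, with a median log2 ratio of 0.74 over the 11.

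Nothing at 24 h reached 2-fold from every saline array. The highest was M363, with log2 levels of 15.87, 16.06 and 17.00 with substance P against 16.16, 15.97 and 15.86 with saline. It was 1.78-fold to 2.20-fold above the saline arrays at 24 h and inside their range at 4 h. M909 had levels of 19.46, 19.89 and 20.14 against 19.01, 19.46 and 18.33, and was 1.61-fold to 3.53-fold above saline at 24 h. The saline arrays alone spanned more than 1 unit for M909. At 1.5-fold, M363 and M909 were the only probes apart from all saline arrays at 24 h, and neither met that criterion at 1 h or 4 h. M909 was 1.94-fold above the saline mean at 4 h.

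Lower values were small by comparison, and the floor limits how far most probes can fall. For M213 and M35 the direction hung on the scaling. At 1 h the lowest probes were M213 (18.66 on the log2 scale against 19.23 to 19.46 with saline) and V221 (16.00 against 16.37 to 16.49). At 4 h they were MA187 (16.07 against 16.46 to 16.94) and M525 (17.13 against 17.52 to 18.20). At 24 h they were M168 (15.85 against 16.19 to 16.23) and M35 (19.59 against 19.89 to 20.14). The ratio nearest to 0 was between -0.57 (M213) and -0.30 (M35). Set against the saline array of the same time, M213 turned to 0.74 and M35 to 0.19 after median scaling. Without scaling, M213 (0.98) and M35 (0.78) were also above the shift of the median probe at their time, while V221 (-0.01), MA187 (0.19), M525 (0.37) and M168 (0.42) were below it. After cyclic loess and normexp correction all 6 were lower at their time.

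The 1 h probes were then read in the other treatments without any saline array, as the 1 h level minus the 24 h level inside a treatment. With substance P, 11 probes were 2-fold higher at 1 h than at 24 h (0.977% of 1126), and of these levels only the 1 h level was used to choose the 6. With LPS, whose arrays share no array with substance P, 39 probes were 2-fold higher at 1 h (3.37% of 1157), and all 6 were among them, with differences from 1.07 to 4.06 and a median of 2.34. With ovalbumin 1 probe was 2-fold higher at 1 h (0.0868% of 1152) and none of the 6, whose differences ran from -0.31 to 0.30. With saline 15 probes were 2-fold higher at 1 h (1.30% of 1157), more than with substance P, and none of the 6, whose differences ran from -0.34 to 0.67. Median scaling, cyclic loess, normexp correction and the unscaled values about their median also put all 6 beyond 2-fold with LPS. With ovalbumin they put 0 there, apart from 1 with normexp correction. Across all 1185 probes, Pearson's r between the substance P difference and the LPS difference was 0.372, and 0.186 over the 1179 probes without the 6. This is a description across probes that share the scaling and the array design, and after normexp correction it was 0.0556, or -0.027 without the 6. The peak levels of M781 (20.14 on both 1 h arrays) reflect an equal rank, which quantile normalization turns into an equal value.

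**Figure D5:**
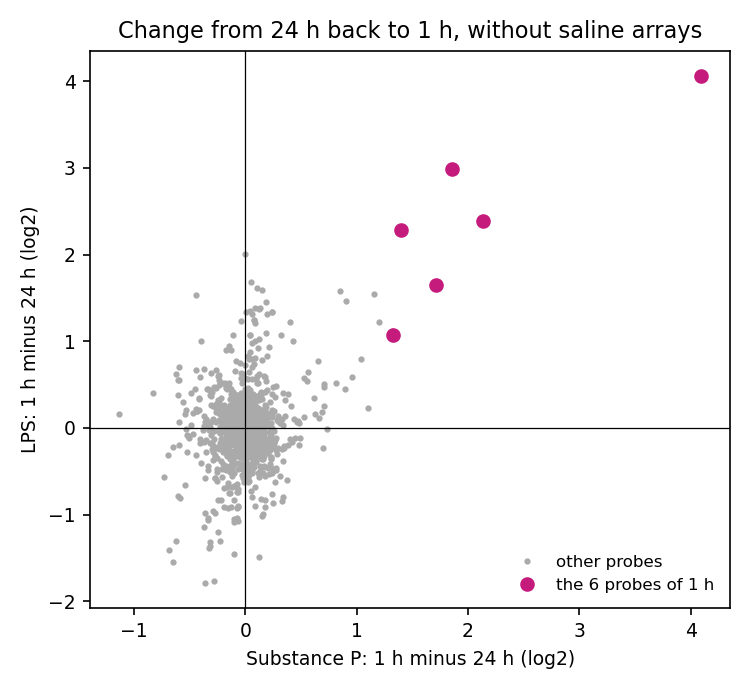
The 1 h level minus the 24 h level (log2) of every probe with substance P (x axis) and LPS (y axis), with the 6 probes of 1 h in pink and the other 1179 in grey. The 6 lie above 1 on both axes, from 1.33 to 4.09 with substance P and from 1.07 to 4.06 with LPS.

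The spread of the substance P arrays about saline went with brightness, as it did between saline arrays. In the brightest 395 probes, by mean level over 12 arrays, the SD of the log2 ratios to the saline mean was 0.408 at 1 h, 0.335 at 4 h and 0.286 at 24 h, and in the dimmest 395 it was 0.106, 0.109 and 0.110. The log2 ratios of saline 1 h to saline 4 h, which have a single array as their reference, had an SD of 0.411 in the brightest and 0.173 in the dimmest of these sets. The floor and the background left in the intensities both hold dim probes together, and their part was not tested here. By code, the SD went from 0.319 at 1 h to 0.224 at 24 h for M codes, from 0.222 to 0.166 for V codes and from 0.189 to 0.194 for MA codes.

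No group has replicate arrays, so tests were possible only with a model that adds treatment and time over all 12 arrays. It was fitted with limma, with Benjamini-Hochberg adjustment over 1181 probes. The error of this model includes treatment effects that differ between times, so it is not a spread between replicates. Averaged over times, 0 probes (0%) differed between substance P and saline, and 52 had an unadjusted p under 0.05. The highest fitted log2 differences were those of M781 (1.54 ± 0.80, SE, 3 arrays against 3) and M99 (1.01 ± 0.47), and the lowest those of M128 (-0.59 ± 0.36) and V336 (-0.58 ± 0.31), each with a limma adjusted p of 0.871. Leaving out substance P 1 h gave 0.79 for M781, and leaving out saline 1 h gave 0.95. The value for M99 was 0.48 without saline 1 h. Leaving out saline 24 h brought M128 to -0.24 and V336 to -0.17, leaving out saline 4 h brought M128 to -1.02, and both probes turned positive after median scaling (0.27 and 0.15) and without scaling (0.70 and 0.59).

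A further term for a single substance P array asked whether that array departs from what treatment and time give when added. It rests on 1 array, and responses of the other treatments that differ between times count as its error. The term for 1 h called 0 probes (0%; 15 at an unadjusted p under 0.05), the term for 4 h 0 (0%; 24) and the term for 24 h 0 (0%; 32). M781 had a 1 h term of 2.26 ± 1.22 (limma adjusted p = 1), and V164 one of 0.72 ± 0.88 (limma adjusted p = 1). LPS 1 h, where both probes are also high, enters that error and also the fitted effect of the 1 h time, from which the term is measured. Without LPS 1 h the terms were 3.23 and 1.56, with V164 at a limma adjusted p of 0.136. Without ovalbumin 1 h they were 1.69 and 0.25. Leaving out any 1 of the other 11 arrays kept the limma adjusted p of M781 at 0.9996 or above, and without scaling it was 0.00116. M3 had a 4 h term of 1.40 ± 0.18 (limma adjusted p = 0.0991). It passed after median scaling (limma adjusted p = 0.00271), after cyclic loess (limma adjusted p = 0.0144) and without LPS 1 h (limma adjusted p = 0.0241), and over 20 alternatives its adjusted p ran from 0.00271 to 1. M363 had a 24 h term of 1.21 ± 0.16 (limma adjusted p = 0.121), from 0.0928 to 0.619 over the alternatives.

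A lasting difference was looked for as groups that do not overlap. All 3 substance P arrays lay above all 3 saline arrays for 44 probes (3.73% of 1181) and below them for 74 (6.27%). With 3 arrays against 3, an exact permutation test cannot go below p = 0.1. The gaps were narrow, with a median of 0.04 on the log2 scale on either side. The widest, found after the values were seen, was that of M700, at 19.89, 20.14 and 19.89 with substance P against 19.46, 19.13 and 18.66 with saline. Its fitted difference was 0.89 ± 0.27 (limma adjusted p = 0.871), higher at 3 of 3 times, and it was 0.37 after cyclic loess and 1.53 after median scaling. On the lower side the widest was M35, which lay at 19.59 on all substance P arrays because it held the same rank on each, and which turned to 0.32 after median scaling. Median scaling gave 128 probes above (10.8% of 1185) and 98 below (8.27%). Cyclic loess gave 56 (4.78% of 1172) and 83 (7.08%), and the unscaled values 584 (49.3% of 1185) and 0 (0%).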

How the data were processed

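Bladder RNA was measured on 12 cDNA arrays, per the labels, with 1 array for each of 4 treatments at 3 times. The deposited table holds linear intensities for 1185 probes; for the scanner, array type, background step and any scaling by the authors, the sources used here name nothing. Groups were taken from the sample titles. Intensities were quantile-normalized over all arrays (limma 3.58.1, R 4.3.3), floored at their 10th percentile and put on a log2 scale. Ratios of single arrays were described with no p-value, leaving out probes at the floor on every array compared. The limma fits used treatment and time as additive factors over 12 arrays. They covered the 1181 probes that exceeded the floor on 3 or more arrays, with Benjamini-Hochberg adjustment at 0.05. The averaged fit and the 1 h term were also run on simulated data with independent noise, but the 4 h and 24 h terms were not. With 1 array per treatment and time, p-values rest on departures from the additive model. These departures mix treatment effects that differ between times with array-to-array spread. No label says that arrays came from separate animals, so that spread may be technical, and the number of arrays limits the precision.

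At each time the 2 highest and 2 lowest probes are named, by the ratio nearest to 0 over the 3 saline arrays, and for the averaged fit by the fitted difference. M700 was chosen after its values were seen. The members, tests and lists were chosen with earlier results of these data known. Lists of genes and cell type markers had been drawn up, but no table pairs the codes with genes, so none was tested. Alternatives were median scaling, no scaling, cyclic loess, normexp background correction, other floors, no filter, trended robust variances, 1.5-fold and 3-fold thresholds, other saline references and each array left out. Of the alternatives, quantile normalization of the 6 arrays alone was chosen after seeing the data.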

Additional observations from a re-analysis of the deposited data

How the results depend on the processing

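Arrays could be paired by time alone, since each group holds 1 array and the labels give no replicate numbers. The times that substance P and saline share are a term in every fit. Counts against the saline array of the same time, at 1, 4 and 24 h (14, 4 and 31), became 72, 15 and 58 after median scaling, 107, 75 and 208 without scaling, 355, 123 and 408 after normexp correction, and 86, 26 and 119 at 1.5-fold or 4, 0 and 6 at 3-fold. Against saline 1 h the later arrays gave 14 and 6, against saline 4 h the 1 h and 24 h arrays 6 and 2, against saline 24 h the 1 h and 4 h arrays 49 and 30, and against the saline mean the later arrays 10 and 4. Cyclic loess moved the 24 h count to 20, and normalizing 6 arrays moved the 1 h and 24 h counts to 24 and 50. Counts against all 3 saline arrays (6, 1 and 0) became 23 and 10 at 1 h and 4 h after median scaling, 13 and 3 after cyclic loess, 56, 45 and 2 without scaling, 34, 21 and 22 after normexp correction, 13, 11 and 2 at 1.5-fold, and 1 and 0 at 1 h and 4 h at 3-fold.

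The median log2 ratio of the 1 h probes at 4 h (0.59) was 1.23 without scaling, 0.19 after cyclic loess, 0.26 for the 1.5-fold choice, 1.35 for the 3-fold choice and 0.22 against saline 4 h. At 24 h (-0.13) it was 0.13 after median scaling, 0.63 without scaling, 0.72 after normexp correction, -0.40 for the 3-fold choice and -0.39 against saline 4 h. These settings, apart from the reference, also choose other probes. The averaged fit called 343 probes without scaling, all higher, where the median of all probes is shifted, and the 1 h and 24 h terms 1 and 2. The 4 h term called 1 probe after median scaling, 1 after cyclic loess and 0 to 1 when arrays were left out in turn. The averaged differences of M128 and V336 reversed to 0.27 and 0.15 after median scaling and to 0.70 and 0.59 without scaling. The cause of these changes was not tested beyond the shift named.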
